A study of Homo sapiens with 10 samples.

Results

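The genes described here encode the TNF receptor complex and the death machinery it can recruit: the ligand TNF, the receptors TNFRSF1A and TNFRSF1B, the adapters TRADD and FADD, the kinases RIPK1 and RIPK3, the necroptosis effector MLKL, the initiator protease CASP8 and its regulator CFLAR. Members were all probe sets annotated to 1 of these 10 genes alone, which gave 26 probe sets for 9 genes, of 54613 non-control probe sets and 19775 genes in all. RIPK1 was not analysed here. Cells came from 4 regrown xenograft tumours and from the parental culture of MDA-MB-231, a cell line established from a triple-negative breast tumour, with 2 Affymetrix expression arrays for each of the 5 lines. Tumours T2 and T3 are labelled resistant and T6 and T8 sensitive to SM-164, a Smac mimetic that antagonises the inhibitor of apoptosis (IAP) proteins, and the parental cells are labelled sensitive. All 4 tumours had grown in SCID mice, shrunk under SM-164 (5 mg/kg by vein, 5 times weekly for 2 weeks) and regrown after the drug was stopped, whereas the parental cells were grown in culture. No xenograft that had not met the drug was measured, so growth in the mouse, the drug and the isolation of the cells cannot be told apart. Whether the 2 arrays per line stand for separate cultures is not stated in the labels, and p-values computed over arrays reflect array spread that may be technical only.

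TNF binding to TNFRSF1A assembles a membrane complex on TRADD and RIPK1, in which IAP proteins attach ubiquitin to RIPK1 and so favour survival signalling. When IAP proteins are lost, as under a Smac mimetic, RIPK1 can instead join FADD and CASP8 and start apoptosis, with the CASP8-like protein CFLAR as a brake. Where CASP8 is not active, RIPK1 and RIPK3 can form the necrosome, which phosphorylates MLKL and opens the plasma membrane. TNFRSF1B lacks a death domain and signals through TRAF proteins, and MDA-MB-231 cells are known for dying under Smac mimetics through TNF that they make themselves.

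Promoter sequences are shown for the genes called in all 4 tumours, TNFRSF1B and MLKL, and for the stretch of the CASP8 promoter that held a motif match. They are RefSeq sequences of build GRCh38.p14, written 5′ to 3′. Those of TNFRSF1B (chr1:12166741-12166990, plus strand) and MLKL (chr16:74700863-74701112, minus strand) run up to the base before the annotated start. The CASP8 stretch (chr2:201233253-201233282, plus strand) holds 30 bases around the match and ends farther upstream. Capitals mark a motif match.
TNFRSF1B: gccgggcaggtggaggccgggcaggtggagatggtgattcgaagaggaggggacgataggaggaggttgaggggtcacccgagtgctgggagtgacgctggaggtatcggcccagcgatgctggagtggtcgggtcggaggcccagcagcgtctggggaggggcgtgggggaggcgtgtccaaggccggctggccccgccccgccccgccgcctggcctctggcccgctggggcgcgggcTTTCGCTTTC
MLKL: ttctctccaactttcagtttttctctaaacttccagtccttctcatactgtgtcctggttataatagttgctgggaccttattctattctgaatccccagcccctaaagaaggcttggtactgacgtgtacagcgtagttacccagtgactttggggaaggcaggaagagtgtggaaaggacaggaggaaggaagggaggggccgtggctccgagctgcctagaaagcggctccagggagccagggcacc
CASP8: aaaattatttTTCCAAGAAgaaaataaacc
Entries existed for 8 of the 10 members, 15 in all, and the 250 bases before each start were searched on both strands for 3 motifs. No window held matches to more than 1 of them. The core of the interferon-stimulated response element, 2 GAAA blocks separated by 2 free bases, occurred in 3.02% of 35116 promoters, and in TNFRSF1B it lay directly before the start, beginning 10 bases upstream on the opposite strand. It also occurred at 1 site of RIPK1, which lies in 2 overlapping entries of that gene, and in no other member. The STAT-type palindrome TTCNNNGAA (6.57% of promoters) matched 1 of the 3 CASP8 entries, beginning 200 bases upstream. An NF-kB-type sequence, GGG and TTTCC separated by 2 free bases (1.73% of promoters), matched none. A match is a description of letters, not of a bound site.

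Levels were read against the background of each array, set by 194 probe sets of olfactory receptor, taste receptor and keratin-associated genes, families that cultured breast cancer cells are not known to use. The 95th percentile of these probe sets lay between log2 6.04 and 6.40 on the 10 arrays, and 38.4% to 42.5% of all probe sets exceeded it. Of the 26 member probe sets, 17 exceeded it on every array, 8 on none and 1, that of TNFRSF1B, on the parental arrays alone. At the 99th percentile (7.53 to 8.47) 6 probe sets were above on every array. The receptor TNFRSF1A, both adapters, MLKL, CASP8 and CFLAR each had at least 1 probe set above background on all arrays, while TNF and RIPK3 had none on any array. Different probe sets bind with different strength, so no level is set against that of another probe set.

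**Figure D1:**
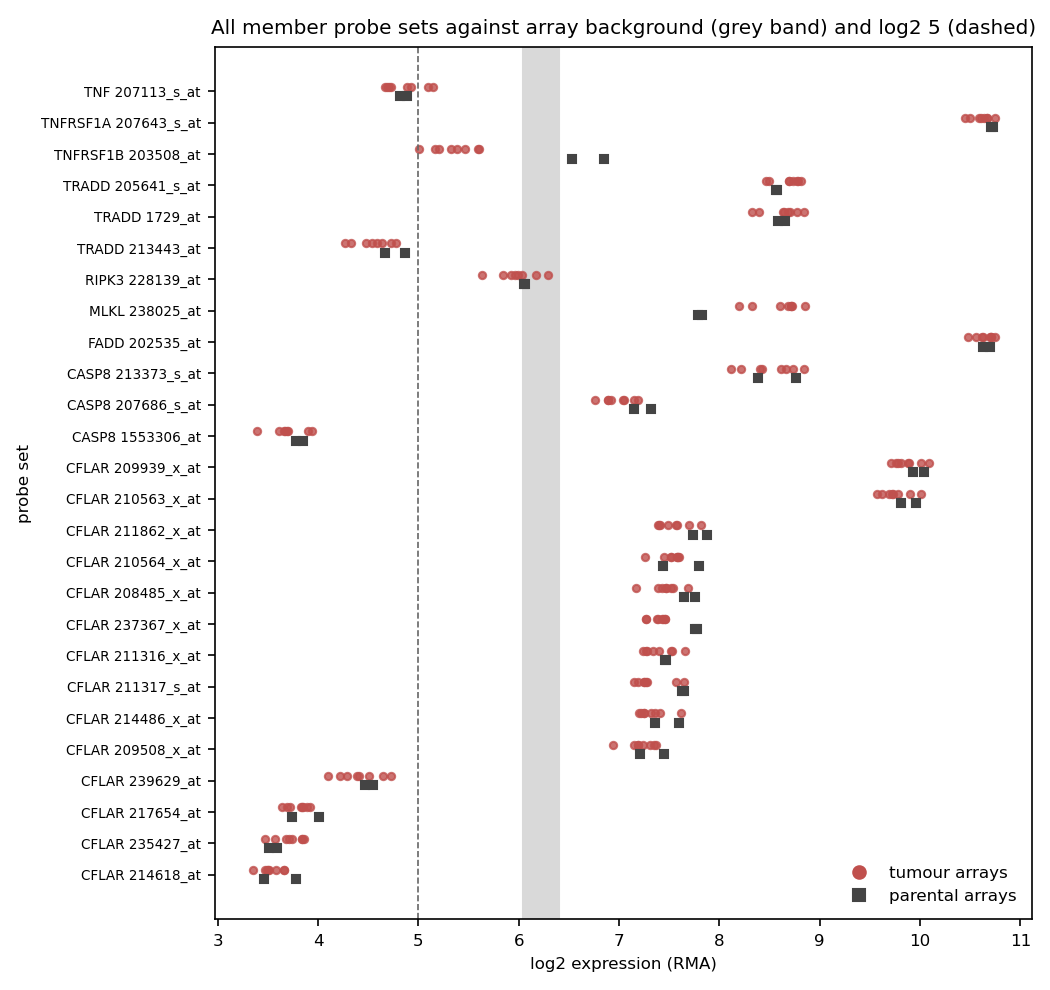
All 26 member probe sets on the log2 scale, with the range of the 10 arrays for each, against the background families' 95th percentile. The single probe sets of TNF and RIPK3 lie within the background range, and that of TNFRSF1B crosses it on the 2 parental arrays only.

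The ligand stayed within background on every array and its second receptor did so in the tumours. TNF gave log2 values of 5.15 and 4.93 in T2, 5.09 and 4.73 in T3, 4.67 and 4.88 in T6, 4.71 and 4.68 in T8, and 4.89 and 4.82 in parental cells. Only the first array of T2 and the first of T3 reached log2 5, the filter for testing, so TNF entered the tests through the resistant tumours and its values there had to be the higher ones. The tumour arrays lay on both sides of the parental arrays. TNFRSF1B gave 5.33 and 5.21 in T2, 5.00 and 5.17 in T3, 5.47 and 5.60 in T6, 5.60 and 5.39 in T8, and 6.85 and 6.53 in parental cells. All 8 tumour arrays lay below both parental arrays.

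TNFRSF1A, the death domain receptor through which soluble TNF acts, was high and even. Its values were 10.66 and 10.74 in T2, 10.45 and 10.50 in T3, 10.59 and 10.66 in T6, 10.63 and 10.61 in T8, and 10.71 and 10.73 in parental cells. T3 was the lowest line, and T2 overlapped the parental arrays. TRADD, the adapter that binds the receptor's death domain, gave 8.74 and 8.81 in T2, 8.46 and 8.50 in T3, 8.78 and 8.77 in T6, 8.69 and 8.70 in T8, and 8.57 and 8.57 in parental cells. T3 lay below and the other 3 tumours above the parental arrays. A second TRADD probe set placed T3 (8.33 and 8.40) below the parental arrays (8.59 and 8.65) too, but T8 (8.64 and 8.64) between the parental arrays. The remaining TRADD probe set stayed at or under 4.87 on all arrays.

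The necrosome genes differed sharply in how well they were measured. RIPK3, the kinase that activates MLKL, gave 6.29 and 6.03 in T2, 6.17 and 5.96 in T3, 5.92 and 5.996 in T6, 5.64 and 5.85 in T8, and 6.06 and 6.06 in parental cells. No array exceeded the background percentile, and the resistant and sensitive arrays overlapped. MLKL, the pore-forming pseudokinase, gave 8.72 and 8.85 in T2, 8.33 and 8.20 in T3, 8.61 and 8.71 in T6, 8.68 and 8.72 in T8, and 7.78 and 7.83 in parental cells. All 8 tumour arrays lay above both parental arrays, and T3 was the lowest tumour.

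In the caspase-8 module FADD varied least and CASP8 most. FADD, which bridges death receptors to CASP8, gave 10.61 and 10.74 in T2, 10.48 and 10.63 in T3, 10.55 and 10.69 in T6, 10.70 and 10.71 in T8, and 10.70 and 10.62 in parental cells. Every line overlapped its neighbours in the order of levels. CASP8 gave 8.42 and 8.66 in T2, 8.11 and 8.22 in T3, 8.84 and 8.73 in T6, 8.62 and 8.41 in T8, and 8.76 and 8.38 in parental cells. T3 lay below every other array, while the T2 and T8 arrays lay between the 2 parental arrays. A second CASP8 probe set ran from 6.76 to 7.32 over all arrays without T3 standing apart, and the remaining one stayed at or under 3.94.

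CFLAR, the inactive CASP8 relative that limits its activation, had 14 probe sets, of which 9 carry the ending that marks probes shared with other transcripts. Its brightest probe set gave 9.71 and 9.81 in T2, 9.89 and 9.88 in T3, 10.01 and 10.09 in T6, 9.78 and 9.76 in T8, and 10.04 and 9.93 in parental cells. T6 and the parental cells were the highest lines and T2 and T8 the lowest. A second bright probe set ran from 9.57 to 10.01, the means of another 8 tested ones from 7.24 to 7.60, and the 4 that were not tested stayed at or under 4.72. In 5 of the 10 tested CFLAR probe sets all 4 tumour means lay below the parental mean. These probe sets read the same gene and are not independent, and the share over all probe sets is not given here. CFLAR is spliced into long and short forms, and the probe sets were not assigned to them here.

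**Figure D2:**
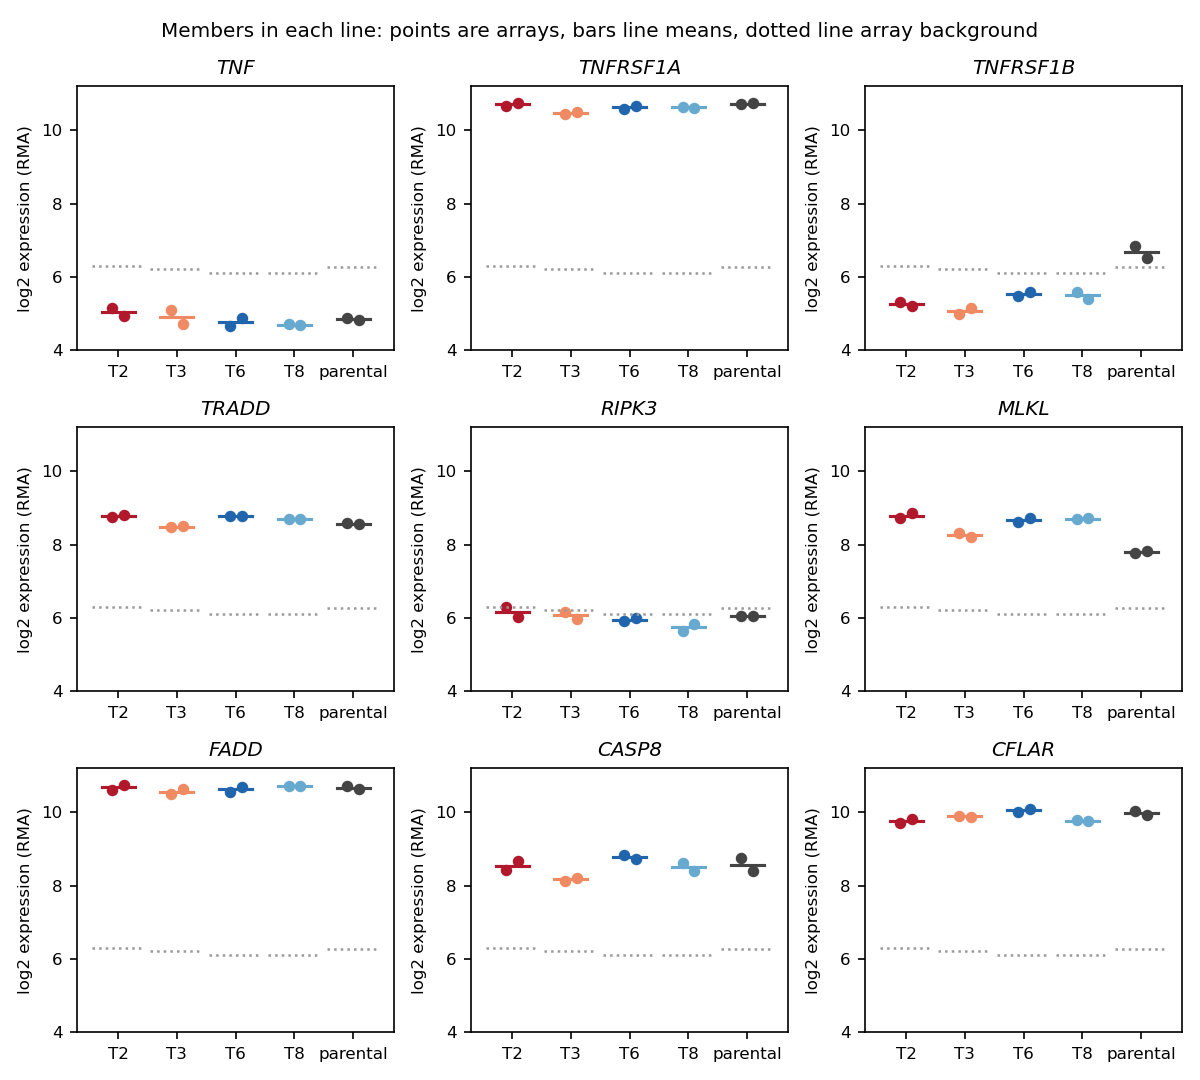
Log2 values of the 9 member genes on each array, by line from T2, T3, T6 and T8 to parental cells, with the line mean as a bar. TNFRSF1B is lower and MLKL higher on all 8 tumour arrays than on the parental arrays, and T3 is the lowest tumour for 6 of the 9 genes.

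The comparison of the regrown tumours with parental cells asked what the 4 tumours had in common. TNFRSF1B fell by 1.34 ± 0.11 log2 units (SE over 8 tumour and 2 parental arrays), 2.53-fold lower in the tumours, with a 95% interval of -1.58 to -1.10 and an adjusted p of 1.98e-07. Since its tumour values lie under the background percentile, where arrays compress differences, the size of this fall is uncertain. MLKL rose by 0.80 ± 0.07, 1.74-fold, with an interval of 0.64 to 0.95 and an adjusted p of 4.01e-07. These were the 2 of 9 member genes called at an adjusted p under 0.05, where 41% of the 14929 tested genes were called (24.8% higher and 16.2% lower). In bulk RNA, fewer cells that express a gene and less RNA per cell cannot be told apart.

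The other 7 genes were not called. The differences and 95% intervals were -0.11 (-0.22 to -0.00) for TNFRSF1A and 0.11 (-0.02 to 0.25) for TRADD. They were -0.02 (-0.15 to 0.11) for FADD and -0.12 (-0.24 to 0.00) for CFLAR. Adjusted p-values of these 4 genes ran from 0.107 to 0.838. The intervals of CASP8 (-0.28 to 0.14) and RIPK3 (-0.30 to 0.15) were wider, as was that of TNF (-0.25 to 0.26). Repeated quantile normalisation called 5 members, adding TNFRSF1A, FADD and CFLAR as lower, where 3191 of 14888 genes were higher and 3390 lower. Centring the array medians turned FADD to 0.04.

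The probe sets of CFLAR did not all behave like the brightest one. Among 20 tested member probe sets, 1 rose and 4 fell, where 36.5% of all tested probe sets were called, and 3 of those that fell belonged to CFLAR. The largest of these differences was -0.38 ± 0.08 (adjusted p = 0.0016), with values of 7.38 and 7.27 in T2, 7.45 and 7.38 in T3, 7.44 and 7.43 in T6, 7.27 and 7.46 in T8, and 7.76 and 7.77 in parental cells. No tumour array reached the parental arrays. Next came a probe set that fell by 0.31 ± 0.08 (adjusted p = 0.0050), but in T3 (7.64 and 7.57) it stood close to parental cells (7.63 and 7.65). Another probe set fell by 0.27 (adjusted p = 0.0183).

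Each tumour was also compared with parental cells, and the 4 comparisons share the same 2 parental arrays. TNFRSF1B was lower by 1.42 ± 0.14 in T2, 1.60 ± 0.14 in T3, 1.15 ± 0.14 in T6 and 1.19 ± 0.14 in T8 on the log2 scale, with adjusted p-values from 4.64e-07 to 2.11e-05. MLKL was higher by 0.98 ± 0.09 in T2, 0.45 ± 0.09 in T3, 0.85 ± 0.09 in T6 and 0.89 ± 0.09 in T8, with adjusted p-values from 7.29e-07 to 0.00111. Both genes were called in every tumour. The brightest CFLAR probe set was lower by 0.22 ± 0.07 in T2 (adjusted p = 0.0339) and by 0.22 ± 0.07 in T8 (adjusted p = 0.0306). Both CFLAR calls ended with centred medians and without a variance trend. Without the less specific probe sets no CFLAR probe set was left to test. The CFLAR call in T2 also ended without a filter on low values and without the first T2, the first parental or any T6 or T8 array. That in T8 also ended without either T8 array or the first parental array. T3 added CASP8, at -0.41 ± 0.12 (adjusted p = 0.0186), and TNFRSF1A, at -0.24 ± 0.07 (adjusted p = 0.00974). Members were called in 3 of 9 cases in T2 (31.6% of all genes), 4 of 9 in T3 (36.5%), 2 of 9 in T6 (32.9%) and 3 of 9 in T8 (41.9%). Without the first T3 array, or with centred medians, T3 had 2 calls, TNFRSF1B and MLKL. The T3 call of CASP8 also ended without the first parental array and that of TNFRSF1A without the second. Without the less specific probe sets neither gene had a probe set left to test, and TRADD was called lower on its second probe set. The second CASP8 probe set had means of 6.90 in T3 and 7.23 in parental cells.

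**Figure D3:**
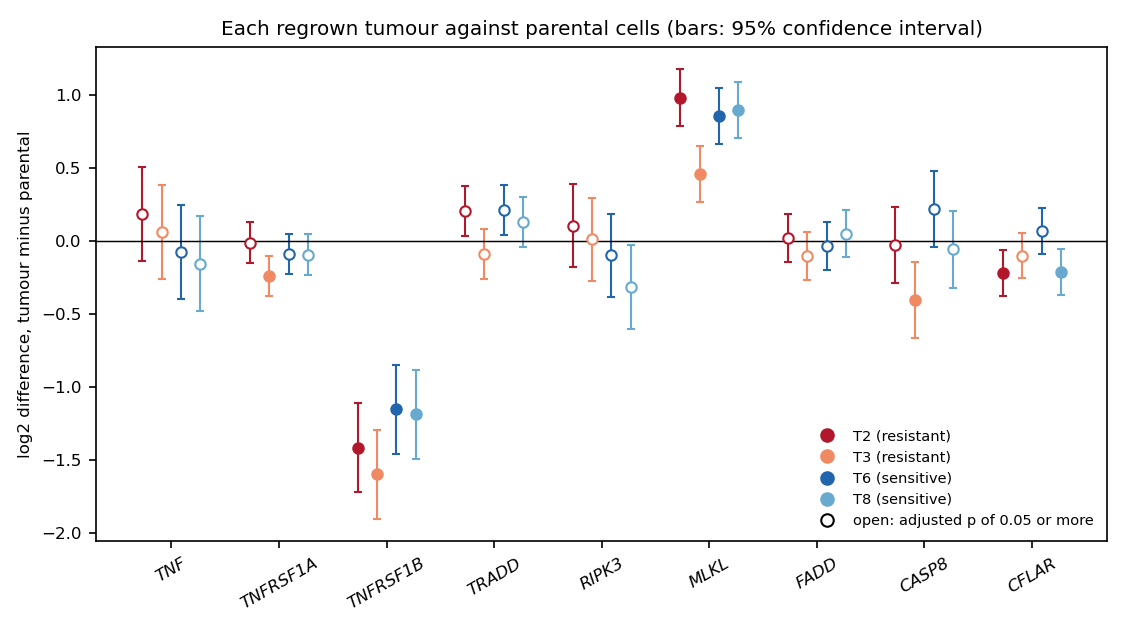
Log2 difference of each tumour from parental cells for the 9 member genes, with 95% intervals. The intervals of TNFRSF1B lie below 0 and those of MLKL above 0 in all 4 tumours, while those of FADD and TNF include 0 in each.

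The spread over the 5 line means set these genes apart from one another. The range of line means was 1.60 for TNFRSF1B and only 2.48% of tested genes had a wider one. It was 0.98 for MLKL (8.0% of genes wider) and 0.62 for CASP8 (21.4%). RIPK3 (0.42) and TNF (0.34) lay near the median gene (0.39). At the other end, TNFRSF1A spanned 0.24 and FADD 0.15, with 80.8% and 94.8% of genes wider.

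Resistant tumours were compared with sensitive ones to ask which genes follow the labelled response. Over the arrays of these 4 tumours, CASP8 was lower by 0.30 ± 0.09 (adjusted p = 0.0318) and TNFRSF1B by 0.34 ± 0.10 (adjusted p = 0.0350). The 2 of 9 members called compare with 17.5% of tested genes, and both were lower, as were 13.2% of genes, with 4.34% higher. TNFRSF1B values of 5.00 to 5.33 in resistant and 5.39 to 5.60 in sensitive tumours did not overlap, but all lie within background. The share of all genes without such overlap is not given here. CASP8 values of 8.11 to 8.66 in resistant and 8.41 to 8.84 in sensitive tumours did overlap, and its second probe set stood at -0.05 (adjusted p = 0.762). The CFLAR probe set in which T3 stood close to parental cells was higher, by 0.22 ± 0.07 (adjusted p = 0.0426). There T3 (7.61) stood apart, while T2 (7.26) lay near T6 (7.21) and T8 (7.22). The brightest CFLAR probe set stood at -0.09 (adjusted p = 0.267). In all, 3 of 20 member probe sets were called, against 15.9% of all probe sets.

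The remaining members were not called between the classes. RIPK3 stood at 0.26 ± 0.09 (adjusted p = 0.0709) and TNF at 0.24 ± 0.11 (adjusted p = 0.142), both within background. MLKL stood at -0.16 (adjusted p = 0.107), TRADD at -0.11 (0.203), FADD at -0.05 (0.564) and TNFRSF1A at -0.03 (0.654). Without tumour T3 the differences of MLKL (0.10), TRADD (0.04), FADD (0.01) and TNFRSF1A (0.08) had the opposite sign. Leaving out tumour T2 left T3 alone in the resistant class and put MLKL at -0.42 and TRADD at -0.26.

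When each tumour counted as 1 replicate, limma gave 0 of 9 members and 0% of tested genes as called. At the unadjusted level of 0.05 it found 1 of 9 members, TNFRSF1B, whose difference had an interval of -0.61 to -0.07. The share of all genes at that level is not given here, and the tumour values of TNFRSF1B lie within background. The interval of CASP8 ran from -0.78 to 0.19 and that of MLKL from -0.68 to 0.37, and the smallest adjusted p among members was 0.845. A fit over arrays that treated lines as random blocks also called 0 members, and 9 of 33341 tested probe sets in all. The differences over arrays therefore describe these 4 tumours. Among members, 0 of 9 were called the same way in all 4 pairs of a resistant and a sensitive tumour, as 0.549% of genes were.

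**Figure D4:**
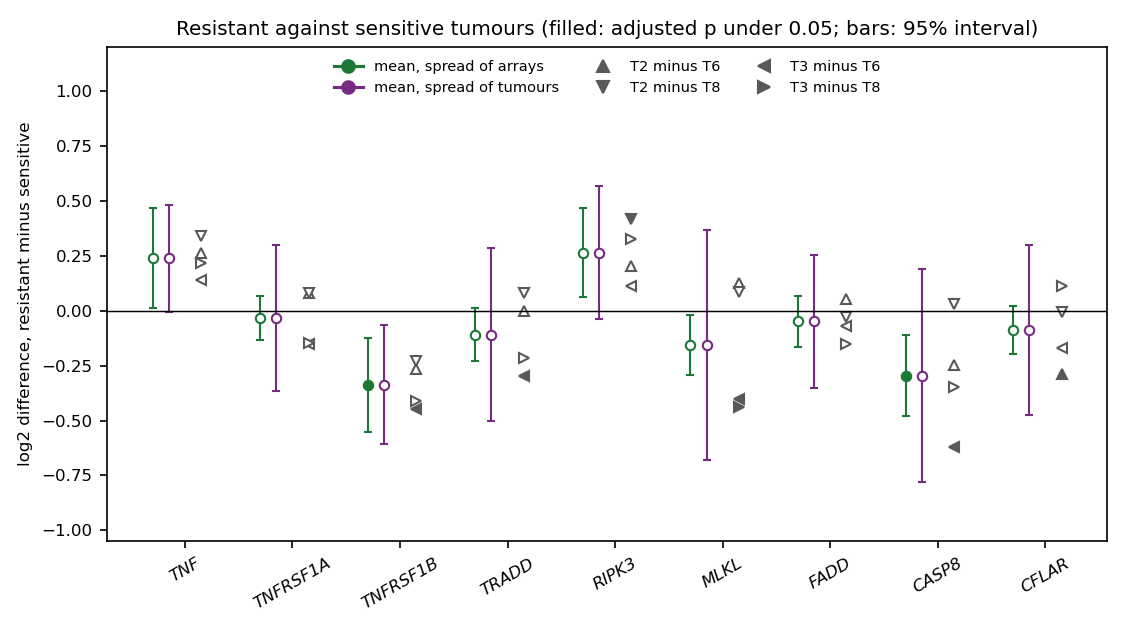
Log2 difference between resistant (T2 and T3) and sensitive (T6 and T8) tumours for the 9 member genes, with 95% intervals over arrays and with the tumour as the replicate. The intervals over tumours are wider and include 0 for every gene except TNFRSF1B, which was not called after adjustment.

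The pairs of tumours show where the class means come from. T3 against T6 called 4 of 9 members, all lower (23.4% of genes called, 12.8% lower): CASP8 at -0.62 (adjusted p = 0.00180), TNFRSF1B at -0.45 (0.0367), MLKL at -0.40 (0.00484) and TRADD at -0.30 (0.0145). These became 2 calls without the first T3 array (CASP8 and MLKL), the second T3 array (CASP8 and TRADD) or the first T6 array (CASP8 and MLKL), and 1 (CASP8) without the second T6 array. Centred medians ended the call of TRADD and omission of the filter that of TNFRSF1B. Without the less specific probe sets CASP8 could not be tested. Its second probe set had means of 6.90 in T3 and 7.12 in T6. T3 against T8 called MLKL alone, at -0.44 (0.00455; 16.1% of genes), and this call ended without the second T8 array. T2 against T6 called CFLAR, at -0.29 (0.0264; 8.34% of genes), and T2 against T8 called RIPK3, at 0.42 (0.0312; 30% of genes). The CFLAR call ended with centred medians, without a variance trend and without the first T2 or either T6 array. Without the less specific probe sets CFLAR could not be tested. The RIPK3 call ended with centred medians and without the first T2 or first T8 array. No member was called in more than 2 of the 4 pairs.

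Tumours with the same label differed as well. Between T2 and T3, 4 of 9 members were higher in T2 and none lower, where 29.5% of genes were called and 13.3% were higher. MLKL was higher in T2 by 0.52 ± 0.09 (adjusted p = 0.000398), CASP8 by 0.38 ± 0.12 (0.0335), TRADD by 0.29 ± 0.08 (0.0121) and TNFRSF1A by 0.23 ± 0.07 (0.0166). MLKL was the 1 gene still called with centred medians, without the second T2 array or without the first T3 array. The call of CASP8 also ended without the second T3 array and with replicate number as a block. Omission of the variance trend ended the calls of CASP8 and TNFRSF1A. A second CASP8 probe set had means of 7.02 in T2 and 6.90 in T3. Between T6 and T8, CFLAR was higher in T6 by 0.28 ± 0.07 (adjusted p = 0.0221), 1 of 9 members where 13.3% of genes were called, and this call ended with centred medians or without any 1 of the 4 arrays involved. T3 had the lowest mean of the 4 tumours for 6 of 9 members, as it had for 29% of tested genes, and the highest for 0 of 9, against 24.3%.

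Genes that work beside the members were taken from lists of their known partners, and list counts are read against the 24.8% of genes higher and 16.2% lower in the tumours. Between resistant and sensitive tumours, counts over arrays are read against 4.34% of genes higher and 13.2% lower, and none of these genes was called with the tumour as the replicate. Of 20 tested genes for ubiquitin and kinase signalling at the membrane complex, 6 rose and 4 fell in the tumours, with a median difference of 0.06 against 0.00 over all genes. TNFAIP3, the ubiquitin-editing enzyme A20, rose by 1.36 ± 0.07 (adjusted p = 1.27e-09), with line means of 9.25 in T2, 9.49 in T3, 9.01 in T6 and 8.81 in T8 against 7.78 in parental cells. It was also higher in resistant than in sensitive tumours, by 0.46 ± 0.07 (adjusted p = 0.000367). RBCK1, a subunit of the linear ubiquitin ligase, rose by 0.36 and MAP3K7, the kinase TAK1, by 0.35, while TAB3 (-0.73), a TAK1 partner, IKBKE (-0.32) and TRAF5 (-0.29) fell, the call of TRAF5 ending with centred medians. Over arrays the deubiquitinase CYLD (-0.22) and the IKK subunit IKBKG (-0.21) were lower in the resistant class, but T2 alone was low for CYLD (T2 8.18, T3 8.90, T6 8.78 and T8 8.74). For IKBKG T3 (9.35) stood above T6 (9.20). Both calls ended with repeated quantile normalisation, and that of CYLD with centred medians too.

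Of 12 tested necroptosis partners 7 rose and 1 fell, with a median of 0.23. PELI1, a ubiquitin ligase described to act on RIPK1 and RIPK3, rose by 1.88 ± 0.10 (adjusted p = 1.13e-09), with means of 8.23, 8.68, 8.06 and 8.80 in T2, T3, T6 and T8 against 6.57 in parental cells. PPM1B, a phosphatase known to dampen RIPK3, rose by 0.80 ± 0.06 (adjusted p = 1.01e-07) and ITPK1, an inositol phosphate kinase known to help MLKL activation, by 0.37. STUB1, a ubiquitin ligase, fell by 0.19, a call that ended with centred medians. Between resistant and sensitive tumours the mitochondrial phosphatase PGAM5 alone was called, 1 of 12 genes against 17.5% of all genes, at -0.23 (adjusted p = 0.0289), and this call ended with repeated quantile normalisation.

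Of 8 tested genes acting with or after CASP8, 4 rose and none fell, with a median of 0.22. CASP9, the initiator caspase of the mitochondrial route, rose by 0.67 ± 0.07 and APAF1, its scaffold, by 0.66 ± 0.09, and PEA15, a death effector domain protein that binds FADD and CASP8, by 0.38. BID, the CASP8 substrate that links it to mitochondria, was the 1 gene called between resistant and sensitive tumours, at -0.35 ± 0.06 (adjusted p = 0.00103), and T3 (8.96) was its lowest line beside T2 (9.34), T6 (9.43), T8 (9.57) and parental cells (9.42).

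Of 11 tested genes for TNF production and shedding, 3 rose and 3 fell. ADAM17, the protease that sheds TNF and its receptors, rose by 0.64 ± 0.07 (adjusted p = 2.18e-06), whereas its inhibitor TIMP3 fell by 1.19 ± 0.06 (adjusted p = 3.84e-10). TIMP3 means were 9.996 in T2, 10.43 in T3, 10.50 in T6 and 10.68 in T8 against 11.59 in parental cells. RHBDF2 (-0.38) and RHBDF1 (-0.32), which carry ADAM17 to the cell surface, fell, and TIA1 (0.56), which restrains TNF translation, and BAG4 (0.29), a silencer of TNFRSF1A, rose. In both resistant tumours TIMP3 (-0.38) and RHBDF2 (-0.33) had lower means than in either sensitive one. The share of all genes with such a split of tumour means is not given here. The mRNA decay factors ZFP36L2 (0.23) and ZFP36 (0.21) were higher in the resistant class over arrays, but T3 (9.86) stood below T8 (9.91) for ZFP36L2 and T2 (8.38) below T8 (8.39) for ZFP36, and both calls ended with centred medians.

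Of 6 tested genes of other death receptors and their adapters, 4 rose and 1 fell, with a median of 0.25. CRADD, an adapter with a death domain, rose by 1.97 ± 0.07 (adjusted p = 4.98e-12), with means of 9.40 in T2, 10.56 in T3, 9.64 in T6 and 10.93 in T8 against 8.16 in parental cells, so the higher pair holds 1 resistant and 1 sensitive tumour. FAS rose by 0.46 ± 0.09, the TRAIL receptor TNFRSF10A by 0.25 ± 0.07, and TNFRSF21 fell by 0.21 ± 0.05, the last call ending with centred medians. FAS was also higher in the resistant class over arrays, by 0.65 ± 0.08 (adjusted p = 7.16e-05), with T3 (8.21) high and T2 (7.10) between T6 (6.79) and T8 (7.22), beside parental cells (6.87). The TRAIL receptor TNFRSF10B (-0.23) was lower in both resistant tumours than in either sensitive one, a split whose share over all genes is not given here. CRADD (-0.31) and TNFRSF21 (-0.14) were called lower in the resistant class, but CRADD was higher in T3 than in T6, and TNFRSF21 was highest in resistant T2 (T2 12.47, T3 11.70, T6 12.37 and T8 12.10), its call ending with centred medians. Over the 5 lists, repeated quantile normalisation and centred medians left every count of genes that rose in the tumours the same, but counts of genes that fell changed. Those that fell numbered 5 and 2 under these scalings for the membrane complex list, 2 and 0 for necroptosis partners, 1 and 0 for genes with or after CASP8, 4 and 3 for TNF production and shedding, and 1 and 0 for other death receptors. Over all genes those that fell numbered 3390 of 14888 and 1479 of 14893, against 2421 of 14929 as reported. Between resistant and sensitive tumours the membrane complex list had 3 higher and 0 lower with quantile normalisation, against 1 and 2 as reported. Over all genes 1350 were higher and 1481 lower with quantile normalisation, against 648 and 1972 as reported.

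**Figure D5:**
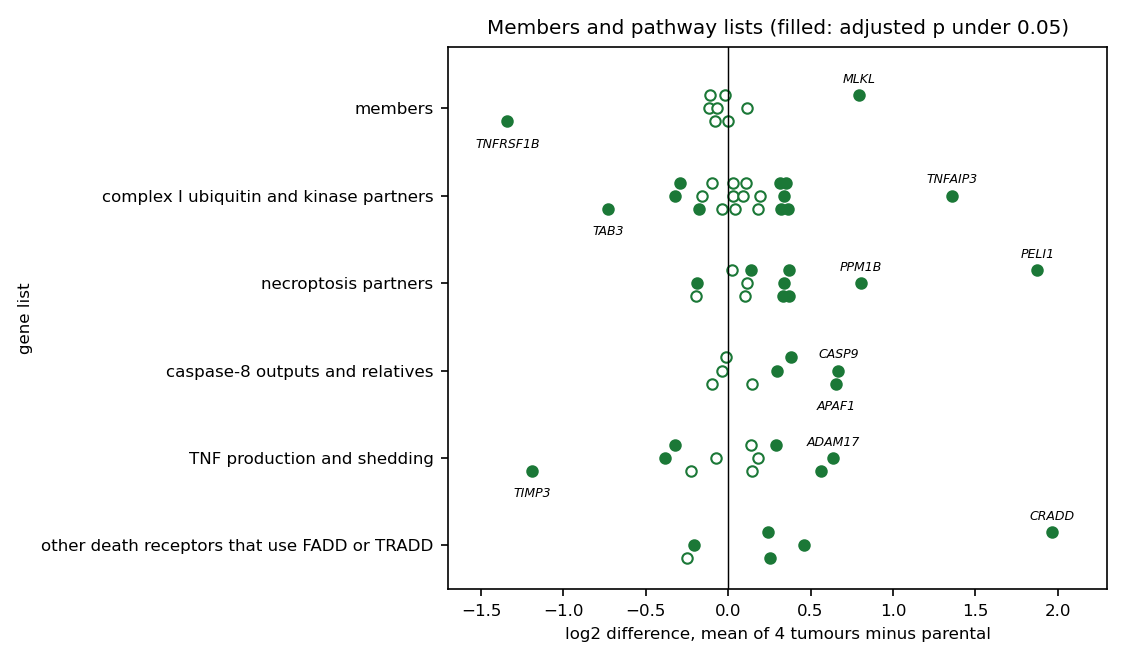
Log2 difference, mean of the 4 tumours minus parental cells, for each tested gene of the members and the 5 partner lists, with filled points for an adjusted p under 0.05. CRADD (1.97), PELI1 (1.88) and TNFAIP3 (1.36) lie farthest to the right, and TNFRSF1B (-1.34) and TIMP3 (-1.19) farthest to the left.

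Markers were read to check the labelled cells and the presence of others. Counts of markers that rose or fell are read against 24.8% of genes higher and 16.2% lower in the tumours. VIM, CD44, EGFR, AXL and CAV1, which mark this line, were above background on all 10 arrays, and PGR and CDH1 on none. ESR1 (line means 6.56 to 6.71) and EPCAM (8.40 to 9.10) exceeded background on all arrays although this line is known for low levels of both. TNFRSF1B is also a gene of blood and vessel cells, and the mean log2 value of 7 macrophage markers was 5.70 to 5.97 on tumour arrays against 6.01 to 6.12 on parental arrays. Of the 5 tested, CSF1R (-0.68), LAPTM5 (-0.61) and ITGAM (-0.40) fell. CSF1R, ITGAM, TYROBP and CD163 exceeded background on no array, while AIF1 and LAPTM5 exceeded it on all 10. The mean of 8 endothelial markers was 5.98 to 6.47 on tumour arrays against 5.81 to 5.84 on parental arrays. Of these, 5 of 8 rose (ENG, ROBO4, TIE1, CDH5 and KDR). VWF, CDH5, TIE1 and KDR exceeded background on no array, while PECAM1 and ROBO4 exceeded it on all 10. The means of 8 fibroblast and pericyte markers were 5.89 to 6.07 against 6.05 to 6.07, and 2 of the 6 tested fell, but 0 with centred medians. COL1A1, RGS5 and ACTA2 exceeded background on all 10 arrays, and COL3A1, PDGFRB, DCN and LUM on none. Those of 5 blood and lymphocyte markers were 5.79 to 6.24 against 5.98 to 6.11. Of the 4 tested 1 rose and 1 fell, and the call of the latter ended with centred medians. PTPRC, the common leukocyte antigen, exceeded background on no array, while CD3E and CD79A exceeded it on all 10 and HBB on 9. The part of these markers in the results was not tested, and host cells would be mouse cells.

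The genes most like a called member were found by Pearson correlation over the 10 arrays, which fall into the same 5 lines, so these values are a description. TNFRSF1B was followed most closely by PPP1R1C (r = 0.989) and TRERF1 (r = 0.985), MLKL by C16orf74 (r = 0.995) and ADM (r = 0.990), and CASP8 by ZNF83 (r = 0.969) and GPD2 (r = 0.959). ADM means were 12.62 in T2, 11.73 in T3, 12.33 in T6 and 12.48 in T8 against 11.22 in parental cells, the same order of lines as for MLKL.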

How the data were processed

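Total RNA of 5 lines was measured on Affymetrix arrays, 2 per line. The deposited table gives the authors' log2 values of 54675 probe sets on each array. The tool names affy, RMA and limma come with it, per the submitters' processing notes, and their roles, versions and settings are not given in the sources used here. As a method, RMA corrects background, quantile-normalises and summarises each probe set, so small shared shifts between arrays are partly removed. Arrays have no read depth, and their number limits the precision.

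Samples were grouped by line from the labels. After 62 controls were left out, a probe set was tested if it reached log2 5 on at least 2 arrays, which left 33341 probe sets. Each gene was represented by its brightest probe set on average, and 14929 genes were tested. Names came from the platform annotation, updated by Entrez number. RIPK1, BIRC3, TRAF2, SPATA2, CD68 and some other listed genes were not analysed here.

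Models were fitted with lmFit and eBayes (trend) of limma 3.58.1 in R 4.3.3, with p-values adjusted by Benjamini-Hochberg over all tested probe sets. The model with 1 coefficient per line over 10 arrays had 5 residual and 10.3 prior degrees of freedom. The response was also tested on line means, with the tumour as the replicate (2 residual degrees of freedom, prior 2.99). The fits were checked on simulated data that held array spread but none between tumours. Changes of 1 log2 unit were recovered in 94% of cases in the tumours against parental cells, and smaller ones in 59%. The response over arrays gave 98% and 72%, and that with the tumour as the replicate 91% and 39%. Since the simulated tumours had no spread of their own, this check cannot show how the last fit behaves on these data. Background was the 95th percentile per array of 194 probe sets of olfactory receptor, taste receptor and keratin-associated genes. All members were named whatever they showed. Of each partner list the called genes with the 3 largest changes per direction were named, and for each called member the 2 genes of highest correlation. Names outside this rule are those of the cell markers. Alternatives were other scalings, filters, variance models, probe set choices, left-out arrays and tumours, and blocks for replicate number and line. The members and lists were chosen with earlier results of these data known.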

Additional observations from a re-analysis of the deposited data

Results flagged for a closer look

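Differences between tumours that passed the test in the fit over arrays are collected here. Between resistant and sensitive tumours they were TNFRSF1B at -0.34 ± 0.10 (SE, adjusted p = 0.0350) and CASP8 at -0.30 ± 0.09 (adjusted p = 0.0318). Neither was called with the tumour as the replicate, and all tumour values of TNFRSF1B lie within background. Between T2 and T3, both labelled resistant, they were MLKL at 0.52 ± 0.09 (adjusted p = 0.000398), CASP8 at 0.38 ± 0.12 (0.0335), TRADD at 0.29 ± 0.08 (0.0121) and TNFRSF1A at 0.23 ± 0.07 (0.0166). Between T6 and T8, both labelled sensitive, the difference was CFLAR at 0.28 ± 0.07 (0.0221), on a probe set of the less specific kind. On the brightest CASP8 probe set the difference between T2 and T3 was larger than that between the classes. A second CASP8 probe set had means of 7.02 in T2, 6.90 in T3, 7.12 in T6 and 6.90 in T8.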

How the results depend on the processing

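TNFRSF1B (-1.5 to -1.18, adjusted p = 4.38e-08 to 7.44e-06) and MLKL (0.73 to 0.86, adjusted p = 1.20e-07 to 2.36e-05) were called in the tumours against parental cells under each of 19 alternatives. Of the 9 members, 2 were called there, 5 with repeated quantile normalisation and 2 to 2 without each array in turn. With that normalisation 3191 of 14888 genes were higher in the tumours and 3390 lower. Between resistant and sensitive tumours the 2 calls over arrays became 1 with repeated quantile normalisation and 1 without a variance trend. With that normalisation 1350 of 14888 genes were higher and 1481 lower. The line as a random block gave 0, and 9 of 33341 probe sets in all. Without the less specific probe sets 1 was left, that of TNFRSF1B. This choice left no probe set of TNF, TNFRSF1A, CASP8 or CFLAR to test, here and in the comparisons below. The calls numbered 4 without tumour T2, 0 without T3, 0 without T6 and 1 without T8. Shares of all genes without a tumour or an array are not given here. Leaving out each array in turn gave 0 to 2, with 0 without the first array of T2, T3, T6 or T8 or the second of T6. CASP8 (-0.48 to -0.05) lost its call in 12 of 23 alternatives (adjusted p = 0.00229 to 0.707) and TNFRSF1B (-0.43 to -0.25) in 11 of 24 (0.0213 to 0.650). T3 against parental cells fell to 2 calls with centred medians and ran from 2 to 4 without each array. T2 against T3 had 1 call with centred medians, 2 without a variance trend, 2 without the less specific probe sets and 1 to 4 without each array, with 1 without the second T2 or the first T3 array. T6 against T8 had 2 calls with repeated quantile normalisation, 0 with centred medians, 0 without a trend, 0 without the less specific probe sets and 0 to 1 without each array, with 0 without any T6 or T8 array. Signs turned for small differences. Against parental cells, leaving out each array gave -0.036 to 0.046 for TNF, -0.056 to 0.019 for FADD and -0.26 to 0.12 for CASP8, with the sign turned without the second parental, second T6 or first T8 array for TNF, without the first parental or first T3 array for FADD and without the first parental array for CASP8. TRADD stood at -0.034 with the mean over probe sets and FADD at 0.045 with centred medians. Between the classes TNFRSF1A stood at 0.030 and FADD at 0.012 with quantile normalisation. Without T3, TNFRSF1A stood at 0.081, TRADD at 0.038, MLKL at 0.10 and FADD at 0.013. CFLAR stood at 0.053 without T6 and at 0.031 with the mean over probe sets. The causes were not tested. Among all genes called against parental cells 60.4% were higher, 48.5% with quantile normalisation and 72.4% with centred medians. Between the classes this share was 24.7%, 47.7% and 15.2%. Same-numbered arrays correlated in their deviations at -0.365 to 0.473, and 4 of 10 pairs passed 0.1. Replicate numbers thus did not pair the arrays in a uniform way, and a batch that crosses the numbers was not tested. With the replicate block, 0 members were called between the classes over arrays and 2 in the tumours against parental cells, and T3 against T6 had 3, without TNFRSF1B. Signals of TNF, RIPK3 and, in tumours, TNFRSF1B lie within background, which limits what their differences show.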
